A study of Homo sapiens with 36 samples.

Results

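The cultures described here were LNCaP cells that received only the vehicle DMSO and were harvested after 8 h or 24 h, 3 cultures at each hour. They were chosen by their sample titles, and they are 6 of the 36 libraries of the study. The study gave LNCaP cells DMSO, 3 µM olaparib (an inhibitor of the DNA repair enzyme PARP), 3 µM enzalutamide (an antagonist of the androgen receptor) or both drugs, and collected triplicate cultures after 8, 24 and 72 h. All of these cells, the vehicle cultures included, grew in RPMI 1640 with 10% fetal bovine serum. LNCaP is an established human prostate cancer line from a lymph node metastasis, a single line that depends on androgen receptor signalling and carries a mutant receptor. The labels do not say when the medium was last changed or how dense the cultures were.

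As background, a culture that is left alone does not stand still. Cells take up glucose, oxygen and growth factors and release acid, and a medium change or the handling of a plate sets off short-lived programmes: immediate early genes such as the AP-1 family, heat shock chaperones driven by the factor HSF1, and sterol genes driven by SREBP factors. Genes of glycolysis and of the response to low oxygen are driven by HIF factors. The comparison of 24 h with 8 h in DMSO gives the part of any time course that occurs with no drug present.

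The 6 libraries held 6171929 to 12670856 counts and correlated with each other at 0.987 to 0.993 over the genes tested (Pearson r of log2 CPM, a description across genes). Levels are given as CPM, counts scaled to a common library total with TMM, a correction for differences in composition. All 10 luminal prostate markers were abundant, from KLK2 with at least 272 CPM to KLK3, the gene of prostate-specific antigen, with up to 830 CPM. No count of the basal genes KRT5 and TP63, the blood genes PTPRC, CD3E, HBB and HBA1, the endothelial gene CDH5, the stromal gene COL1A2 or the neuroendocrine gene INSM1 was found in any of the 6. Other markers of the same classes were counted: COL1A1 at 17.9 to 24.2 CPM, VWF at 6.95 to 9.58 CPM, ACTA2 at 5.89 to 8.79 CPM, SYP at 1.34 to 2.96 CPM and KRT14 at 1.41 to 2.15 CPM. The 19 markers of other cell types summed to 34.7 to 45.2 CPM in these libraries, against 5644 to 6364 CPM for the luminal markers. These are bulk samples, so fewer cells with a transcript and less of it per cell cannot be told apart.

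A pair of the 6 libraries stood at the ends of a scale of base composition. For each library, the mean log2 deviation of the 5% of genes with the lowest transcript GC content was subtracted from that of the 5% with the highest. This index was -0.17, -0.04 and -0.002 in the 8 h cultures and 0.34, 0.17 and 0.10 in the 24 h cultures, so all 24 h libraries leaned to GC-rich transcripts. The groups did not overlap, and the exact two-sided permutation test gave p = 0.1, the smallest that 3 against 3 allows. Replicate 1 was the lowest of the 8 h libraries and replicate 1 the highest of the 24 h libraries, and values without both are given beside the named genes. Of the 37 called genes chosen by the naming rule, 4 kept their call without both and 33 did not.

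Between 8 and 24 h, edgeR's quasi-likelihood test called 102 of the 15744 genes tested, or 0.648%, at a threshold of 0.05 on the p adjusted by Benjamini and Hochberg. Of these, 88 rose (0.559%) and 14 fell (0.0889%). The changes were mostly modest: the median log2 fold change of the rises was 0.60, that of the falls was -0.31, and 21 genes changed at least 2-fold, all of them rises. At an unadjusted p below 0.05 there were 1585 genes (10.1%). The 3 values at 24 h lay clear of the 3 at 8 h for 2485 genes (15.8%), among them 86 of the 88 rises and 14 of the 14 falls. The median log2 fold change of all genes tested was -0.004. The replicates are cultures of 1 line, so p-values measure the spread between cultures.

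The largest rise among genes whose groups were clear of each other was CRLS1, the gene of cardiolipin synthase, which makes the signature lipid of the mitochondrial inner membrane. CRLS1 (chr20:6006093-6040053, plus strand, GRCh38) stood at 0.967, 1.28 and 0.662 CPM in the 8 h cultures and at 9.58, 6.86 and 7.50 CPM in the 24 h cultures. Its log2 fold change was 2.94 ± 0.29 (standard error, edgeR adjusted p = 5.4e-08). The 8 h values rest on 11, 15 and 4 counts and the 24 h values on 97, 86 and 56 counts, so the level was low at both hours and the groups were far apart. CRLS1 has a transcript GC content of 42.6%, below the median of all genes, and without both libraries at the ends of the GC scale its log2 fold change was 2.74 (edgeR adjusted p = 0.00018).

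Several further rises were strong. NDUFAF8, an assembly factor of respiratory complex I, had 11.5, 17.3 and 20.03 CPM at 8 h and 63.9, 39.3 and 54.4 CPM at 24 h. This was a log2 fold change of 1.72 ± 0.22 (edgeR adjusted p = 1.6e-05). Every 24 h culture lay above every 8 h culture, which the rule for naming the largest rises required. PDF, the mitochondrial peptide deformylase, went from a mean of 3.04 ± 1.42 to 8.10 ± 1.80 CPM (SD, 3 cultures each, edgeR adjusted p = 0.0012). However, 79.3% of its exon bases are shared with other genes, COG8 on the same strand sharing the most, so its reads are uncertain. Without both libraries at the ends of the GC scale NDUFAF8 was called (1.33, edgeR adjusted p = 0.024) and PDF was not (0.91, adjusted p = 0.41).

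**Figure D1:**
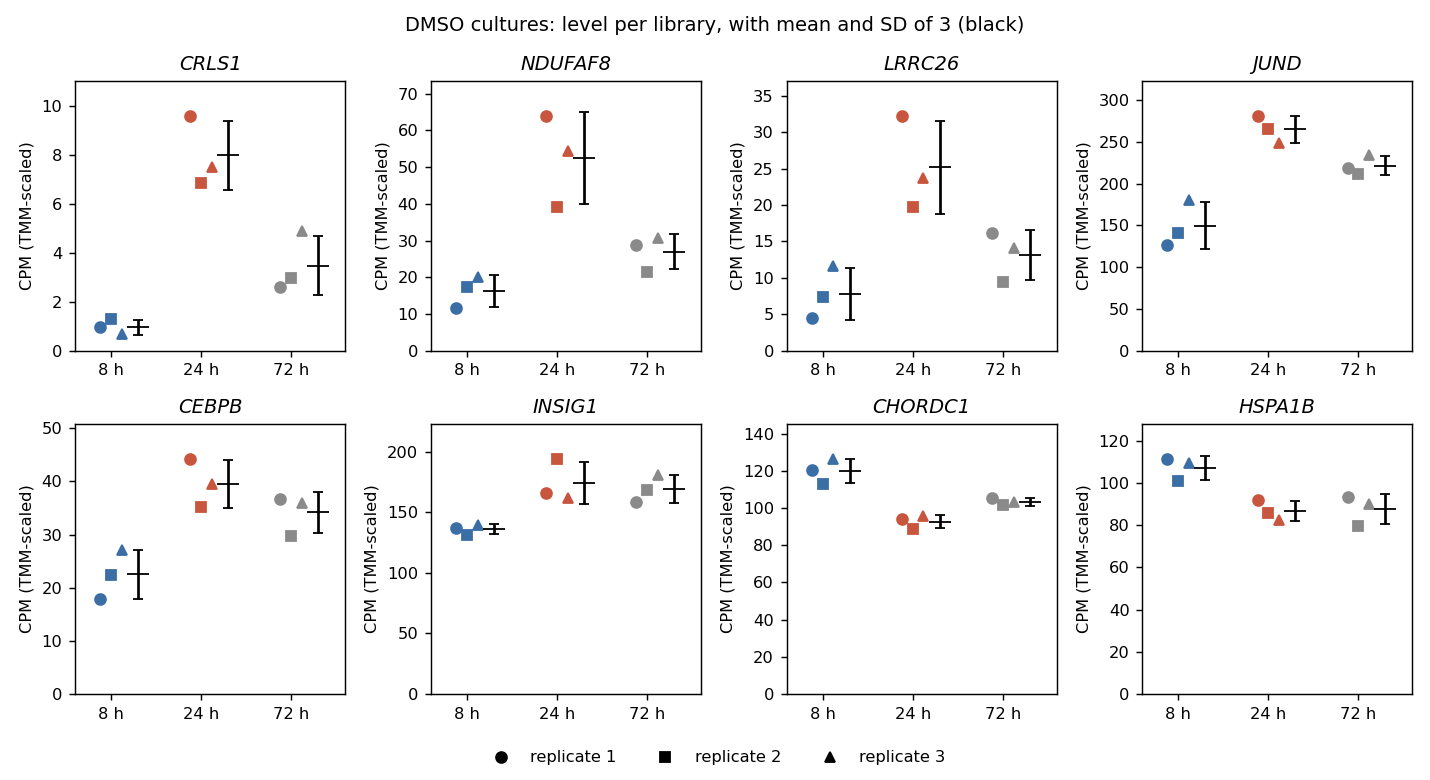
Level of 8 genes in the DMSO libraries, in TMM-scaled CPM on axes that start at 0; symbols are replicate cultures, colours are hours, and black marks are the mean and SD of 3. For CRLS1, NDUFAF8, LRRC26, JUND, CEBPB and INSIG1 the 24 h cultures lie above the 8 h cultures, and for CHORDC1 and HSPA1B they lie below.

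Several of the largest rises were GC-rich genes. LRRC26, a leucine-rich repeat protein known as an auxiliary subunit of BK potassium channels, had 4.48, 7.31 and 11.6 CPM at 8 h and 32.2, 19.7 and 23.7 CPM at 24 h (log2 fold change 1.79 ± 0.25, edgeR adjusted p = 4.2e-05). C4orf48, a small secreted peptide, had 3.52, 4.51 and 8.44 CPM at 8 h and 21.2, 13.2 and 16.3 CPM at 24 h (1.74 ± 0.24, edgeR adjusted p = 4.2e-05). The HES family repressor HES4, the RNA-binding protein PCBP1 and TGFBR3L, a coreceptor of inhibin, rose by 1.14, 1.08 and 1.48 on the log2 scale. GC content was 55.2% in PCBP1 and 73.1% to 74.7% in LRRC26, C4orf48, HES4 and TGFBR3L. Mean levels over the 6 libraries ran from 9.88 CPM in TGFBR3L to 30.2 CPM in PCBP1, where the median of all genes tested was 17.2 CPM. In each of these 5 genes, replicate 1 at 8 h was the lowest library and replicate 1 at 24 h the highest. Over all 88 rises, replicate 1 at 8 h was the lowest of the 6 libraries for 64 genes and replicate 1 at 24 h the highest for 72 genes. Of all genes tested, these libraries were the lowest and the highest for 15.7% and 17.7%. Since 86 of the 88 had groups that did not overlap, the lowest could only be 1 of the 3 libraries at 8 h and the highest 1 of the 3 at 24 h in those. Without both, the log2 fold change of LRRC26 was 1.26 (edgeR adjusted p = 0.067) and that of C4orf48 was 1.29 (adjusted p = 0.067). HES4, PCBP1 and TGFBR3L then had 0.64, 0.72 and 0.99 (adjusted p = 0.40, 0.15 and 0.21), so none of these 5 genes was called without both.

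Part of this group shares exon bases with other genes, and reads were counted without strand. GET4, which helps to deliver tail-anchored proteins to the endoplasmic reticulum, rose from 1.04 ± 0.740 to 4.83 ± 2.22 CPM (log2 fold change 2.39 ± 0.42, edgeR adjusted p = 0.0012). Of its exon bases, 80.8% are shared with other genes, and the gene that shares most lies on the opposite strand. TAF10, a subunit of the TFIID and SAGA complexes, rose from 3.05 ± 0.986 to 10.5 ± 5.37 CPM (1.83 ± 0.28, edgeR adjusted p = 0.00015). It shares 40.8% with other genes, ILK on the opposite strand sharing the most. SRXN1, a sulfiredoxin that restores oxidised peroxiredoxins, PCBP1 and NUDT3 share 85%, 73.2% and 95.9% with other genes. The gene that shares most lies on the same strand for SRXN1 and on the opposite strand for PCBP1 and NUDT3. Without both libraries at the ends of the GC scale, GET4, TAF10, SRXN1 and NUDT3 were not called (log2 fold changes of 1.47, 1.04, 1.01 and 0.53, edgeR adjusted p = 0.45, 0.23, 0.84 and 0.95). In all, 23 of the 88 rises and 3 of the 14 falls share more than 10% of their exon bases with other genes on either strand. So do 2505 of the 15744 genes tested. CRLS1, NDUFAF8, LRRC26, C4orf48 and HES4 share none.

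The transcription factor genes JUND and CEBPB rose. JUND, an AP-1 subunit, had 127, 141 and 181 CPM at 8 h and 281, 265 and 249 CPM at 24 h, a log2 fold change of 0.84 ± 0.11 (edgeR adjusted p = 1.6e-05). It was the 1 called member of 34 immediate early and growth factor response genes, whose median was 0.09. CEBPB, a C/EBP factor of stress and differentiation, rose from 22.5 ± 4.61 to 39.6 ± 4.52 CPM (0.84 ± 0.13, edgeR adjusted p = 0.00013). It was also the 1 called member of 27 amino acid response genes, whose median was -0.02 and in which CEBPG, another C/EBP gene, had a log2 fold change of -0.12 (adjusted p = 0.56). Its relatives CEBPA and CEBPD, named here after their values were seen, rose from 18.4 ± 1.04 to 31 ± 4.53 CPM and from 19.5 ± 3.82 to 33.1 ± 4.28 CPM (both edgeR adjusted p = 0.00015). JUND and these 3 C/EBP genes are GC-rich, with 65.9% to 70.0% GC, and all 4 were still called in a fit with a GC offset for each library, with smaller log2 fold changes of 0.57 to 0.69. Without both libraries at the ends of the GC scale, JUND was called (0.69, edgeR adjusted p = 0.021) and CEBPA, CEBPB and CEBPD were not (0.60, 0.61 and 0.56, adjusted p = 0.12, 0.13 and 0.17).

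INSIG1, which holds the SREBP escort protein in the endoplasmic reticulum when sterols are plentiful and is itself an SREBP target, had 137, 132 and 140 CPM at 8 h and 166, 194 and 162 CPM at 24 h. Its log2 fold change was 0.36 ± 0.06 (edgeR adjusted p = 0.00045), and the groups did not overlap. It was the 1 called member of 24 cholesterol synthesis genes. Of these, 18 lay above 0 and their median was 0.05. KCNN2, a calcium-activated potassium channel and the 1 called member of 52 androgen-induced genes, rose from 139 ± 12 to 188 ± 14.1 CPM (0.44 ± 0.08, edgeR adjusted p = 0.0033). UBE2S, which extends ubiquitin chains for the anaphase-promoting complex, rose from 245 ± 4.58 to 309 ± 19.3 CPM (0.34 ± 0.07, edgeR adjusted p = 0.012) and was the 1 called member of 50 mitotic genes. Of those 50 genes 36 lay below 0, and the median of the list was -0.05. Neither KCNN2 nor UBE2S was called without replicate 1 at 8 h (adjusted p = 0.14 and 0.15) or without both libraries at the ends of the GC scale (0.33 and 0.28, adjusted p = 0.40 and 0.51), and UBE2S also lost its call without replicate 1 at 24 h. The ferritin heavy chain FTH1 had 478, 820 and 1141 CPM at 8 h and 1829, 1557 and 1700 CPM at 24 h (1.06 ± 0.21, edgeR adjusted p = 0.0066). FTH1 has many processed copies and shares 63.2% of its exon bases with other genes, BEST1 sharing the most, so its reads are uncertain. Without replicate 1 at 8 h its adjusted p was 0.20 and without both libraries 0.43. FTH1 and SRXN1 were the 2 called among 19 NRF2 antioxidant genes, whose median was -0.02.

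The GC content of the called genes differed from that of the rest. The median transcript GC content was 63.3% in the rises, 38.5% in the falls and 48.5% in all genes tested, and 51 of the 88 rises were among the 1560 most GC-rich genes, 1 of 10 equal classes. Over 15594 genes, Spearman's rho of the log2 fold change with GC content was 0.33, a description across genes that share the same 6 libraries. The median log2 fold change went from -0.11 in the most GC-poor of these classes to 0.10 in the most GC-rich. With a GC offset for each library, an alternative added after seeing the data, 67 genes were called (0.43%), 63 rises and 4 falls. It kept 56 of the 88 rises and 4 of the 14 falls. CRLS1, JUND, INSIG1 and NDUFAF8 kept log2 fold changes of 2.98, 0.62, 0.38 and 1.63, and BARD1, HSPA1B and ANAPC13 were among the falls that kept their call.

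**Figure D2:**
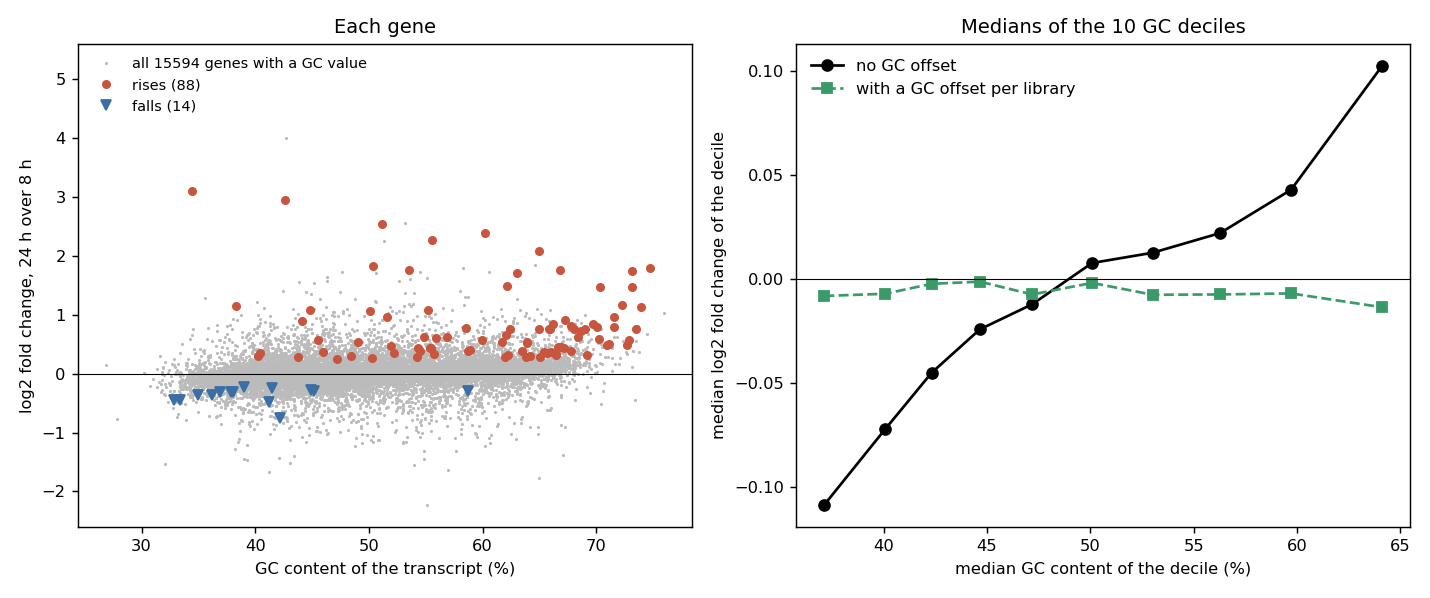
Left, log2 fold change at 24 h over 8 h against the GC content of the transcript in percent, for 15594 genes, with the 88 rises and 14 falls in colour. Right, median log2 fold change of 10 equal classes of genes by GC content; without an offset the medians climb from -0.11 to 0.10, and with the GC offset all 10 lie between -0.014 and -0.0012.

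The 14 falls were small, from -0.23 to -0.75 on the log2 scale, and all had groups that did not overlap. BARD1, the partner of BRCA1 in its ubiquitin ligase, had 102, 102 and 96.5 CPM at 8 h and 78.0, 83.4 and 81.8 CPM at 24 h (-0.30 ± 0.07, edgeR adjusted p = 0.020). XIAP, an inhibitor of caspases, went from 83.9 ± 2.14 to 71.5 ± 1.79 CPM, and ANAPC13, a subunit of the anaphase-promoting complex, from 74.9 ± 1.52 to 61.2 ± 1.31 CPM (edgeR adjusted p = 0.035 and 0.016). Other falls included the DNA damage factor SLF2, the ubiquitin ligase HECTD2, LYSMD3, the chaperonin-like ciliary gene BBS10, the sugar nucleotide transporter SLC35A3, LRRC58, the splicing factor RBM5, the proteasome activator PSME4 and the chaperone genes CHORDC1 and HSPA1B. The GC content of 13 of the falls lay between 32.9% and 45.2%, below the median of all genes, and that of HSPA1B was 58.7%. All 14 falls lost their call without replicate 1 at 8 h (edgeR adjusted p from 0.066 to 0.36) and again without both libraries at the ends of the GC scale (0.14 to 0.75), and all 14 log2 fold changes without both still lay between -0.70 and -0.23. BARD1 kept its call in 9 of the 14 alternatives, ANAPC13 in 7 and XIAP in 3.

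Most heat shock genes had lower values at 24 h. Of 19 measured members, 2 fell, 0 rose, 15 lay below 0, and 12 had all 24 h values below all 8 h values, where 8.68% of all genes tested did. Their median log2 fold change was -0.13, against -0.004 for all genes, and it stayed between -0.14 and -0.11 in each of the 14 alternatives. HSPA1B, an inducible HSP70, had 111, 101 and 110 CPM at 8 h and 92.1, 85.9 and 82.3 CPM at 24 h (-0.30 ± 0.06, edgeR adjusted p = 0.0065). HSPA1B is nearly identical to its neighbour HSPA1A, so its reads may be divided between them. CHORDC1, a cochaperone of HSP90, had 121, 113 and 126 CPM at 8 h and 93.9, 88.8 and 95.4 CPM at 24 h (-0.37 ± 0.07, edgeR adjusted p = 0.0058), and with the GC offset its value was -0.25 (adjusted p = 0.11). HSPA1B reached -0.34 with the offset (adjusted p = 0.00053). Without replicate 3 at 24 h HSPA1B had -0.26 (adjusted p = 0.067).

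The abundant chaperones had small differences. HSPA8, the constitutive HSC70, had 6022, 5641 and 5868 CPM at 8 h and 5334, 5299 and 5157 CPM at 24 h (-0.15 ± 0.05, edgeR adjusted p = 0.15), and DESeq2 called it (adjusted p = 0.036). HSP90AA1, the inducible HSP90, had 2473, 2424 and 2547 CPM at 8 h and 2170, 2170 and 2229 CPM at 24 h (-0.18 ± 0.07, edgeR adjusted p = 0.35). DNAJB4, a J-domain cochaperone, had the lowest log2 fold change of the list, -0.48 ± 0.12 (adjusted p = 0.065). In each of these 3 genes every 24 h culture lay below every 8 h culture. The small heat shock protein HSPB1 (0.13), the factor HSF1 itself (0.05) the cochaperone BAG3 (0.01) and the collagen chaperone SERPINH1 (0.69, adjusted p = 0.57) lay above 0, none of them called.

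The promoters of 3 of these genes show the letters that HSF1 is known to bind, repeats of GAA and its complement in alternating order. Capitals mark GAANNTTC or TTCNNGAA in the 250 bases before the start that RefSeq lists, on GRCh38.p14, read 5′ to 3′ on the gene's strand, where overlapping matches run together. The windows are chr6:31827488-31827737 (plus strand) for HSPA1B, chr11:90223050-90223299 (minus strand) for CHORDC1 and chr11:123062137-123062386 (minus strand) for HSPA8, shown because the first 2 are the called members and the third is the most abundant.
HSPA1B: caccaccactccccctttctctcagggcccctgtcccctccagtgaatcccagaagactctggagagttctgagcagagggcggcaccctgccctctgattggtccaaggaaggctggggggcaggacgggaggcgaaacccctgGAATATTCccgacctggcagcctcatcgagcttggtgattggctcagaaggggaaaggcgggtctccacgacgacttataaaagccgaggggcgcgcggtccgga
CHORDC1: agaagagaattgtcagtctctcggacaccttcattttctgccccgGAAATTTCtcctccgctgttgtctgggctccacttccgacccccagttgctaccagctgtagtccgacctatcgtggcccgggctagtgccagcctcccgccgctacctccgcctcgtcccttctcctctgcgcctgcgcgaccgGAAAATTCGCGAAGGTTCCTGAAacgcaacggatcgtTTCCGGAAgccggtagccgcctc
HSPA8: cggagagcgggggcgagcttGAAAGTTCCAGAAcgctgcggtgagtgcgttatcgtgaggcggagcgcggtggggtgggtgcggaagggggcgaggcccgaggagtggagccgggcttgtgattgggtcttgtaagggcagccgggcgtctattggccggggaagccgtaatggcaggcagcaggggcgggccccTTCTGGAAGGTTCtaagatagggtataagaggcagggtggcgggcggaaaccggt
The CHORDC1 window holds 6 matches, the HSPA8 window 4 and the HSPA1B window 1. Such a match is present in 11.7% of the 27305 promoter windows of this length in the table and in 6 of the 18 heat shock genes with a window. The longer form GAANNTTCNNGAA or TTCNNGAANNTTC is present in 0.439% of all windows and in 3 of the 18, CHORDC1, HSPA8 and SERPINH1. A match is a description of the letters and not evidence of binding in these cells.

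Hypoxia and glycolysis genes leaned upward, and this rested on 1 culture. Of 34 measured members, 33 had a log2 fold change above 0, their median was 0.18, and 1 rose and 0 fell. An unadjusted p below 0.05 was found for 17 members, against 10.1% of all genes tested, and 6 had groups that did not overlap upward, where 7.11% of all genes tested did. Replicate 2 at 24 h was the highest of the 6 libraries for 31 of the 34, where it was so for 13.3% of all genes tested. Per library, the median deviation of the list was 0.003, -0.06 and -0.03 at 8 h and -0.03, 0.40 and 0.04 at 24 h (exact two-sided permutation p = 0.2). Without replicate 2 at 24 h the median of the list was 0.03 and 0 members were called. Without replicate 1 at 24 h, 6 were called, among 50 calls over all genes. With no filter on low counts 9 were, and the count over all genes is given in the closing section.

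LDHA, which makes lactate from pyruvate, shows the pattern: it had 766, 740 and 691 CPM at 8 h and 742, 1479 and 880 CPM at 24 h. The log2 fold change was 0.50 ± 0.14 (edgeR adjusted p = 0.091), and without replicate 2 at 24 h it was 0.15. NDRG1, a gene known to respond strongly to low oxygen, had 71.7, 67.8 and 73.2 CPM at 8 h and 68.3, 204 and 95 CPM at 24 h (0.81 ± 0.21, adjusted p = 0.060), and BNIP3, a mitophagy receptor, had 157, 153 and 164 CPM at 8 h and 152, 302 and 189 CPM at 24 h (0.45 ± 0.13, adjusted p = 0.10). In all 3 genes replicate 1 at 24 h stood at the 8 h level, replicate 2 was the highest, and replicate 3 was between them. ALDOA, the glycolytic aldolase, was the called member, with 63.7, 72.0 and 76.5 CPM at 8 h and 84.3, 110 and 90.9 CPM at 24 h (0.44 ± 0.10, edgeR adjusted p = 0.021). ALDOA shares 43.3% of its exon bases with other genes, and it was not called without replicate 2 at 24 h (0.31, adjusted p = 0.29) or without replicate 1 at 8 h (0.37, adjusted p = 0.29). Its call was also lost without replicate 2 at 8 h and without both libraries at the ends of the GC scale.

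A few genes outside the list, named here after their values were seen, belong beside it. PLOD2, a collagen lysyl hydroxylase, had the largest fitted rise of all called genes, 3.10 ± 0.72 (edgeR adjusted p = 0.026), on 0.352, 0.255 and 0.497 CPM at 8 h and 0.395, 6.46 and 1.47 CPM at 24 h, so its groups overlapped. Without replicate 2 at 24 h its log2 fold change was 1.29 (adjusted p = 0.75). The secreted peptide APLN had 21.8, 22.2 and 21.4 CPM at 8 h and 23.1, 45.6 and 30.1 CPM at 24 h (0.61 ± 0.15, adjusted p = 0.041), and without that culture 0.27 (adjusted p = 0.65). EGLN1, the main oxygen-sensing prolyl hydroxylase, had 7.74, 8.67 and 5.79 CPM at 8 h and 15.2, 14 and 13.5 CPM at 24 h (0.90 ± 0.20, edgeR adjusted p = 0.021). All 3 of its 24 h cultures lay above the 8 h cultures. Without replicate 2 at 24 h its value was 0.92 (adjusted p = 0.055), and its call was also lost without replicate 1 at 8 h (0.91, adjusted p = 0.18), replicate 3 at 8 h or replicate 1 at 24 h.

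**Figure D3:**
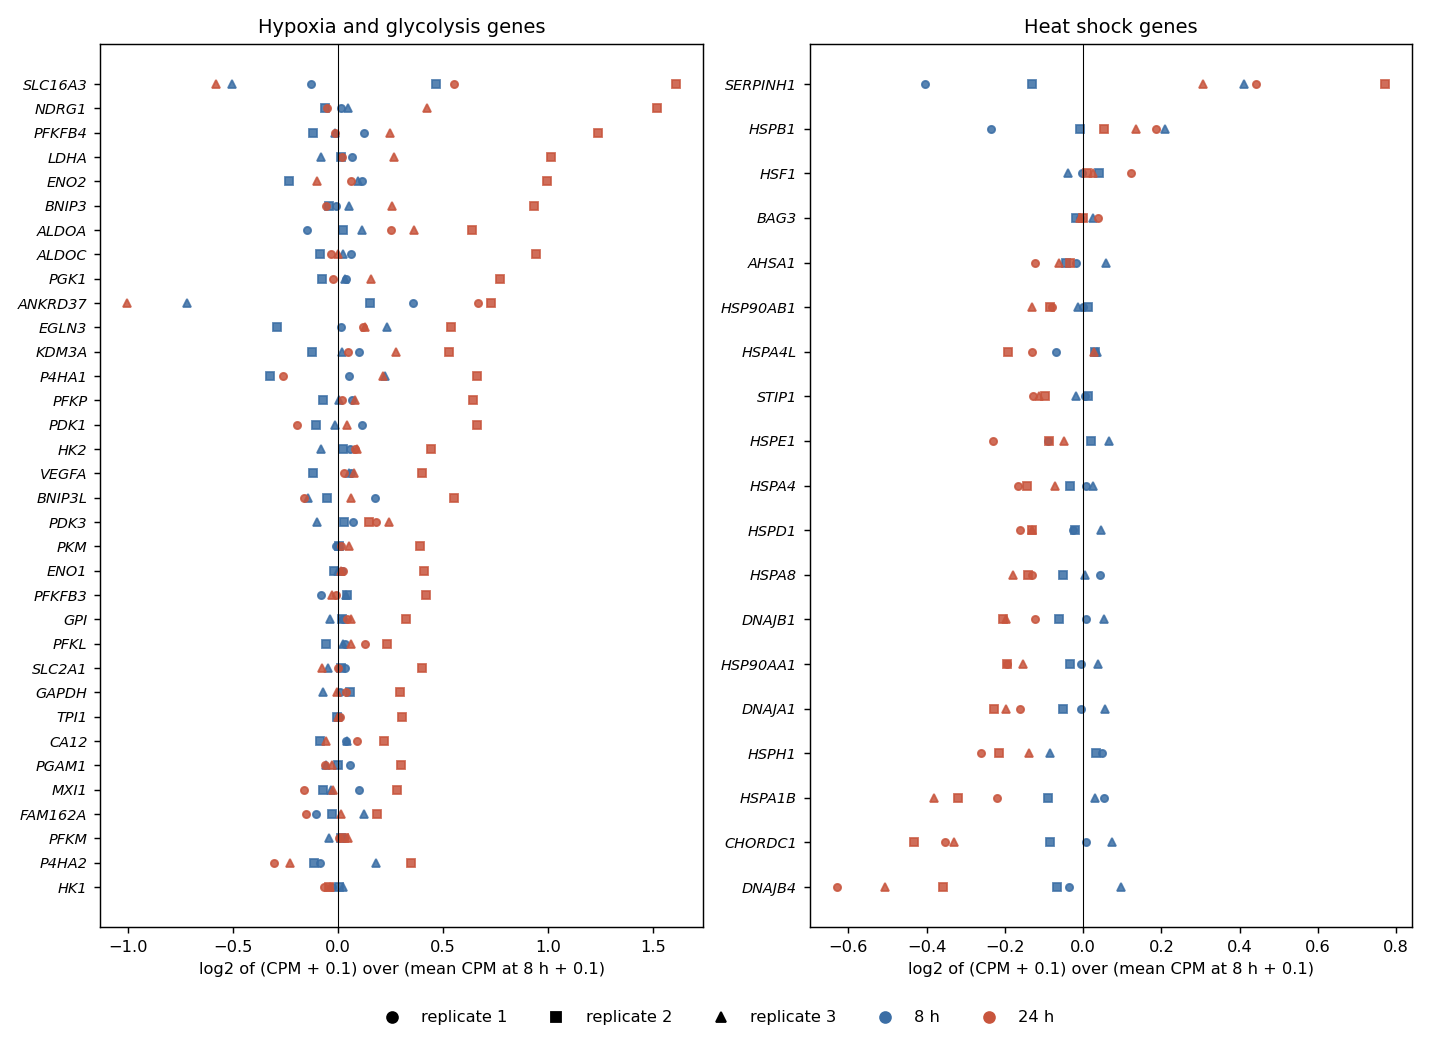
Each row is a gene and each symbol a culture, placed by the log2 of its CPM over the mean CPM at 8 h, with 0.1 CPM added to both. Among the 34 hypoxia and glycolysis genes, replicate 2 at 24 h stands to the right for most rows, and among the 19 heat shock genes the 24 h cultures stand to the left of the 8 h cultures in 12.

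The core of the hypoxia response element, ACGTG or GCGTG on either strand, is marked in capitals in the same kind of window for 3 glycolysis genes, the called member and 2 abundant ones: chr11:18394313-18394562 (plus strand) for LDHA, chr16:30064029-30064278 (plus strand) for ALDOA and chrX:78103998-78104247 (plus strand) for PGK1.
LDHA: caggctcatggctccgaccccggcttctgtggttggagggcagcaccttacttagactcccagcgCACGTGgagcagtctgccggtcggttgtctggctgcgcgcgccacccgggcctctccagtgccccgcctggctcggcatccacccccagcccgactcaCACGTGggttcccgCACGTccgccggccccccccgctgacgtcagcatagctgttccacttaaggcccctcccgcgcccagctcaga
ALDOA: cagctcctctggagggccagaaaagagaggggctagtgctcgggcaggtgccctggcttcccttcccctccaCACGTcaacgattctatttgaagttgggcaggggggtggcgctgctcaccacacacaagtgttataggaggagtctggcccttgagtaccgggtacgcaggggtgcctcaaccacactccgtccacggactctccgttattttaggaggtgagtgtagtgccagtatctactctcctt
PGK1: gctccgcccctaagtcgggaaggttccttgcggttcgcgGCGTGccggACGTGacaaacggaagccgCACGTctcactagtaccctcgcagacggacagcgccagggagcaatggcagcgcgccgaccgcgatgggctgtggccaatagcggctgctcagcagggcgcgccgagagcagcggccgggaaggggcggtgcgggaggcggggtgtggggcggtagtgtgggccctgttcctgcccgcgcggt
LDHA has 5 matches, PGK1 3 and ALDOA 1, overlaps included. The core is short: 43.1% of all windows hold it, and 19 of the 31 members of the list with a window do. PGK1, phosphoglycerate kinase, had 414, 383 and 413 CPM at 8 h and 397, 688 and 449 CPM at 24 h (0.34 ± 0.12, adjusted p = 0.22).

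Transcripts of the mitochondrial genome made up 5.27% to 5.51% of the counts in the 8 h libraries and 4.0% to 4.78% in the 24 h libraries, groups that did not overlap (exact two-sided permutation p = 0.1, the smallest possible). All 13 genes had a log2 fold change below 0, with a median of -0.30. Of them, 10 had all 24 h values below all 8 h values, where 8.68% of all genes tested did. MT-CO1, a core subunit of cytochrome c oxidase, had 10478, 10031 and 9878 CPM at 8 h and 8804, 7478 and 7944 CPM at 24 h (-0.33 ± 0.20, edgeR adjusted p = 0.62). Of the 13, 0 were called by edgeR, 0 had an unadjusted p below 0.05 and 0 were called by DESeq2, both fitted over all 12 groups. In edgeR fitted to the 8 h and 24 h DMSO libraries alone, 5 of the 13 were called, among them MT-CO1 (-0.32 ± 0.06, adjusted p = 0.016). With no filter on low counts 11 were called. The numbers of all genes called in these fits are given with the other settings in the closing section. The groups at 8 h and 24 h were tight beside the 72 h DMSO libraries, where MT-CO1 ranged from 2634 to 10132 CPM.

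Most gene lists held few or no calls, and DESeq2 called 0 members of each list given with 0 calls here unless its count is stated. Of 22 circadian clock genes 0 were called and 4 had an unadjusted p below 0.05, where 10.1% of all genes tested did. NR1D1, the REV-ERB alpha repressor of the clock, had 21.5, 24.4 and 28.1 CPM at 8 h and 22.4, 21.1 and 21.8 CPM at 24 h. Of proliferation genes, 0 of 50 DNA replication genes were called (4 with an unadjusted p below 0.05), with a median of -0.001, and the proliferation marker MKI67 had 243, 274 and 195 CPM at 8 h and 237, 218 and 254 CPM at 24 h. MYC had a log2 fold change of -0.10 ± 0.05 (edgeR adjusted p = 0.55), and 0 of 35 MYC and ribosome biogenesis genes were called (2 with an unadjusted p below 0.05), with 27 below 0. Of 38 p53 target genes 0 were called, 9 had an unadjusted p below 0.05 and 27 lay below 0, with a median of -0.05, and CDKN1A, the p21 inhibitor, had 411, 421 and 431 CPM at 8 h and 407, 406 and 400 CPM at 24 h.

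KLK3, an androgen receptor target, had 663, 587 and 663 CPM at 8 h and 667, 830 and 644 CPM at 24 h (0.16 ± 0.10, edgeR adjusted p = 0.61), so its groups overlapped and replicate 2 at 24 h was the highest. TMPRSS2, a membrane protease, had 704, 641 and 664 CPM at 8 h and 724, 824 and 725 CPM at 24 h (0.18 ± 0.06, edgeR adjusted p = 0.18), with no overlap. FKBP5, a cochaperone of steroid receptors, had a log2 fold change of 0.01 ± 0.06. Of the 52 androgen-induced genes 32 lay above 0 with a median of 0.02. An unadjusted p below 0.05 was found for 11 of the 52, against 10.1% of all genes tested. In that list 13 had groups that did not overlap upward and 5 downward, where 7.11% and 8.68% of all genes tested did. Of 14 androgen-repressed genes 0 were called (1 with an unadjusted p below 0.05). The glucose-sensing gene TXNIP had 307, 255 and 342 CPM at 8 h and 248, 316 and 250 CPM at 24 h, again with overlap. Of 45 nuclear respiratory chain genes 0 were called by edgeR, 1 by DESeq2 and 3 had an unadjusted p below 0.05, with a median of 0.01. Some further lists had 0 calls each, with medians between -0.07 and 0.06. Among them, members with an unadjusted p below 0.05 numbered 6 of 15 for fatty acid synthesis and 3 of 22 for endoplasmic reticulum chaperones. The counts were 1 of 28 for lysosome and autophagy, 1 of 60 for cytosolic ribosomal proteins and 3 of 33 for interferon-stimulated genes. For NF-kB genes and replication-dependent histones they were 1 of 10 and 1 of 12. Of all genes tested 10.1% had such a p. In the fatty acid synthesis list 4 members had groups that did not overlap upward and 2 downward, where 7.11% and 8.68% of all genes tested did.

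The DMSO cultures at 72 h give the next levels of the called genes, with the caution that both comparisons with 72 h share libraries with the one above. The rises were chosen by high values at 24 h and low values at 8 h, and the falls by the reverse. For the rises, lower values at 72 h than at 24 h and higher values than at 8 h were therefore favoured in advance. For the falls the opposite directions were favoured. The GC index was 0.39, 0.04 and 0.007 in the 72 h libraries, and its part in these comparisons was not tested. Replicate 1 at 72 h held 4655538 counts, with 1.54% from the mitochondrial genome. Against 24 h, 10 of the 88 rises lay above 0 at 72 h, 0 were called higher and 6 were called lower, where 0.0826% and 0.0635% of all genes were (0.146% in both directions). Against 8 h, 21 of the 88 rises were called higher and 6 of the 14 falls lower at 72 h, where 2.05% and 0.756% of all genes were (2.81% in both directions). CRLS1 had 2.61, 2.95 and 4.87 CPM at 72 h, between its levels at 8 h and 24 h, and was called lower than at 24 h (-1.19 ± 0.24, edgeR adjusted p = 0.033). NDUFAF8 had 28.7, 21.5 and 30.7 CPM at 72 h and was also called lower than at 24 h (adjusted p = 0.042). JUND had 218, 212 and 235 CPM, INSIG1 158, 168 and 181 CPM and HSPA1B 93.5, 79.7 and 90.1 CPM at 72 h, each still called against 8 h (adjusted p = 0.0032, 0.0031 and 0.0064). The hypoxia and glycolysis list had a median of 0.24 at 72 h against 8 h, with 7 of 34 called higher.

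The drug-treated cultures have their own 8 h and 24 h libraries, none shared with DMSO. In the olaparib cultures 80 of the 88 rises lay above 0 with a median of 0.19, and 4 were called higher and 0 lower, where 0.273% and 0.0635% of all genes were (0.337% in both directions). In the enzalutamide cultures 73 lay above 0 with a median of 0.20, and 14 were called higher and 2 lower (3.06% and 4.63% of all genes, 7.69% together). With both drugs 66 lay above 0 with a median of 0.15, and 12 were called higher and 3 lower (3.82% and 4.33% of all genes, 8.14% together). About the same number of all genes lay on either side of 0 in each, 50.2%, 50.9% and 50.2% above. Of the 14 falls, 13, 10 and 10 lay below 0. The GC index lay between -0.15 and 0.08 at 8 h and between 0.09 and 0.15 at 24 h with olaparib, where the groups did not overlap. It overlapped with enzalutamide (-0.22 to 0.12, then -0.06 to 0.14) and with both drugs (-0.17 to 0.09, then 0.04 to 0.20). Its part in these counts was not tested.

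**Figure D4:**
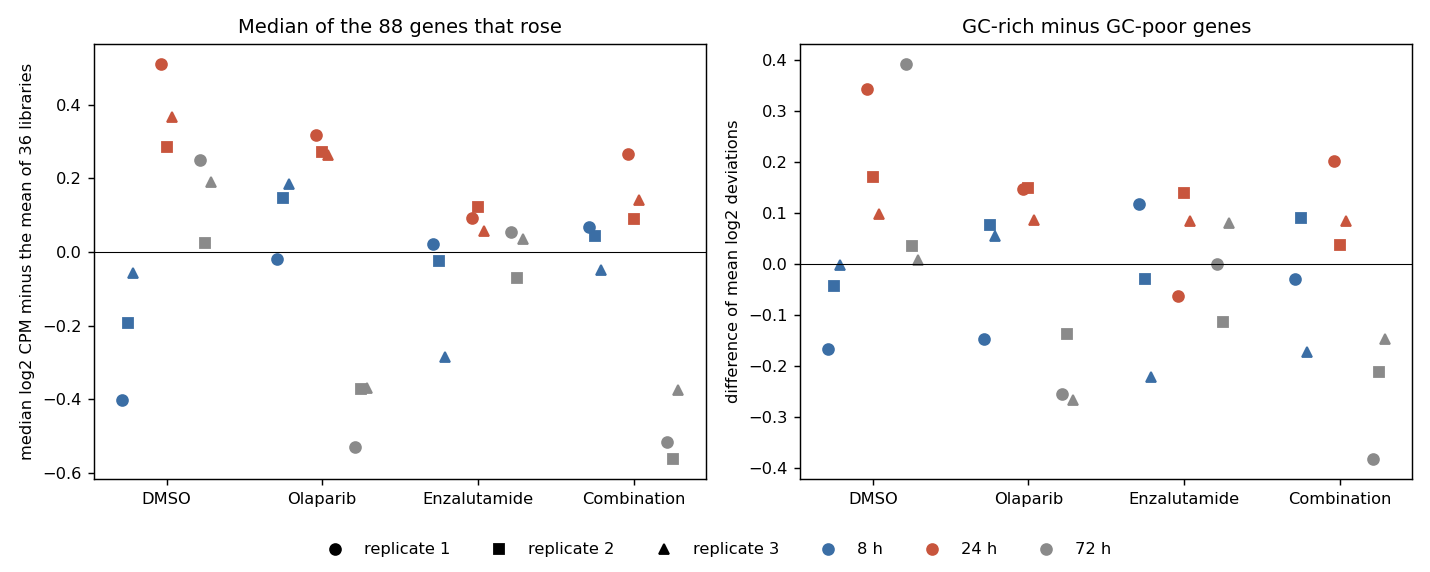
Left, the median over the 88 rises of log2 CPM in each of the 36 libraries, as the deviation from the mean of all libraries; right, the index of GC-rich minus GC-poor genes in the same libraries. Symbols are replicates and colours are hours. The DMSO cultures run from -0.40 at 8 h to 0.51 at 24 h on the left. On the right they run from -0.17 at 8 h to 0.34 at 24 h, and replicate 1 at 72 h stands at 0.39.

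Some of the changes in DMSO differed from those in the drug cultures by a direct test, an interaction term in the same fit. The change of CRLS1 was smaller in all 3 arms, by 2.51 ± 0.39 with olaparib, 1.97 ± 0.44 with enzalutamide and 2.42 ± 0.40 with both on the log2 scale (edgeR adjusted p = 0.00079, 0.0064 and 0.00016). INSIG1, which rose in DMSO, fell with enzalutamide (-0.31, adjusted p = 0.00046) and with both drugs (-0.52, adjusted p = 2.4e-07), and the differences from DMSO were -0.67 ± 0.08 and -0.88 ± 0.09 (adjusted p = 1.6e-06 and 5.2e-09). With olaparib its change was -0.03. KCNN2 likewise fell with enzalutamide (-0.33, adjusted p = 0.015), a difference from DMSO of -0.77 ± 0.12 (adjusted p = 9.4e-05). Over all genes, the change differed from that in DMSO for 432 genes with enzalutamide (2.74%; 0.845% higher, 1.9% lower), for 8 with olaparib (0.0508%; 0.0381% and 0.0127%) and for 440 with both (2.79%; 1.1% and 1.7%). Of the 88 rises, 19, 2 and 26 differed downward in these arms and 1, 0 and 0 upward (SRSF5, a splicing factor gene, by 0.57 with enzalutamide, edgeR adjusted p = 0.00083, named after its value was seen), and of the 14 falls 3, 0 and 3 differed upward. These 3 comparisons share the 6 DMSO libraries with each other and with the main comparison, so they are not independent. The rises and falls were chosen by their change in DMSO, which each difference subtracts. Differences opposite to the DMSO change were therefore favoured in advance. In these arms 2, 3 and 3 of the 88 rises had a difference above 0, where 50.7%, 50.1% and 50.1% of all genes did.

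The count of 102 depended on single libraries. Leaving out replicate 1 at 8 h left 20 genes called, all of them among the 102, and leaving out replicate 1 at 24 h left 50, of which 38 were among the 102. Without replicate 2 at 8 h there were 67. Without both libraries at the ends of the GC scale 11 genes were called, 8 of them among the 102: CRLS1, NDUFAF8, JUND, INSIG1, the linker histone H1-10, C8orf82, PLOD2 and APLN. The other 3 were NDRG1, LDHA and BNIP3, which rest on replicate 2 at 24 h. In each of 12 alternatives, all those run except the GC offset and the fit without both libraries, 19 of the 102 genes kept their call, among them CRLS1, NDUFAF8, JUND, INSIG1, LRRC26, C4orf48, NUDT19, H1-10 and the 3 C/EBP genes, and 6 kept it in all 14: CRLS1, NDUFAF8, JUND, INSIG1, H1-10 and C8orf82.

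**Figure D5:**
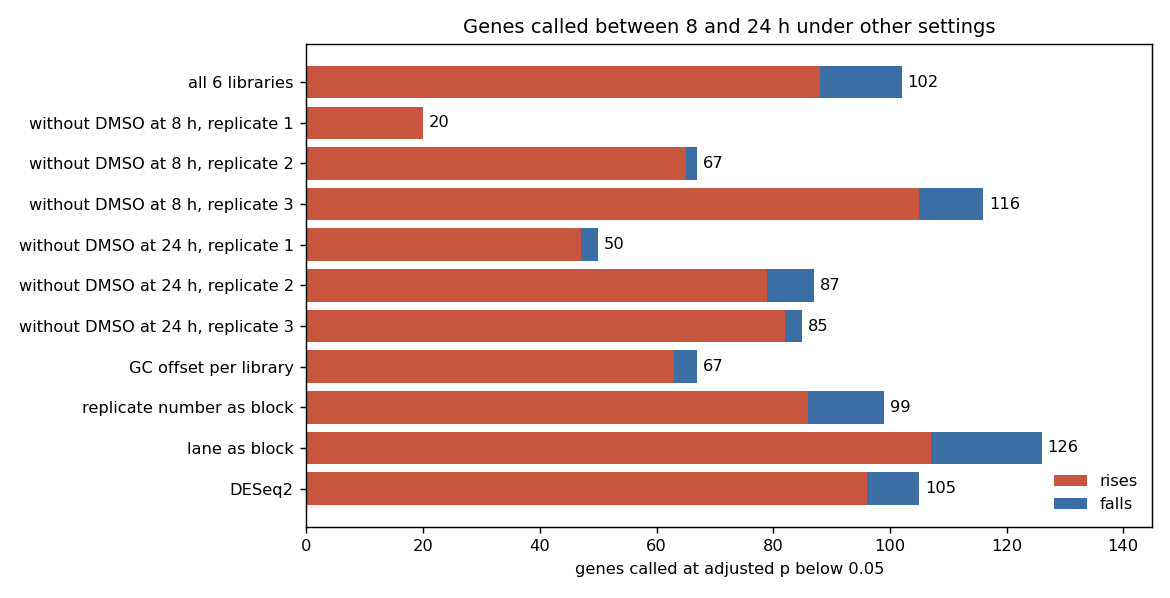
Number of genes called between 8 and 24 h in DMSO, split into rises and falls, with all 6 libraries and under other settings. The count is 102 with all libraries, 20 without replicate 1 at 8 h, 50 without replicate 1 at 24 h and 67 with a GC offset per library.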

How the data were processed

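Gene expression was measured by RNA-seq in cultures of the LNCaP line. The deposited table holds counts of read pairs per gene. Per the file headers, the authors' counter was featureCounts 2.0.0 with the Ensembl release 99 annotation of GRCh38, without strand, for fragments of 20 to 5000 bases with both mates mapped. The submitters' processing notes also name STAR, DESeq2 and hg38. Per the labels' protocols, libraries were TruSeq from 1 µg of total RNA, read as pairs of 150 bases on an Illumina HiSeq.

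All 36 libraries entered 1 edgeR 4.0.16 quasi-likelihood fit (R 4.3.3) on the counts, with 12 group means, no block, TMM scaling and the filterByExpr filter, which left 15744 of 60676 genes with 99.8% of the counts. There were 24 residual degrees of freedom, and the common biological coefficient of variation was 6.44%. Genes were called at a Benjamini-Hochberg adjusted p below 0.05, and every adjusted p in the text comes from this test unless another is named. Errors of log2 fold changes are standard errors. The total counts per library limit the precision of low genes. Counts were simulated for this comparison over 15633 genes, with 50 genes changed at each size. The changed genes were drawn only from those with a mean above 50 counts per library. Of the changes, 52% of 1.25-fold, 82% of 1.5-fold and 100% of 2-fold were recovered, with 9 false calls. The simulation held no shift with GC content between libraries. These rates therefore do not carry over to genes with fewer counts or to libraries that differ in GC content.

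The genes named were the 15 largest rises and falls with a mean of at least 1 CPM, an ordinary symbol and groups that do not overlap, up to 6 called members of each of 32 gene lists, fixed check genes (KLK3, TMPRSS2, FKBP5, CDKN1A, MYC, MKI67, TXNIP, NR1D1, CRLS1) and the 5 largest differences from DMSO in each direction, not all of which are printed. Uncalled members of the hypoxia, heat shock and mitochondrial lists, PLOD2, APLN, EGLN1, CEBPA, CEBPD, H1-10, C8orf82 and NUDT19 lie outside that rule and were chosen after their values were seen. The members and lists were chosen with earlier results of these data known. GC content and exon number came from the longest GENCODE 29 transcript of each gene on GRCh38, and promoter windows from RefSeq. Shared exon bases came from the exon positions deposited with the counts, and only partner genes with counts were included. The GC offset was a loess curve (span 0.3) of log2 deviation on GC content for each library. Alternatives were RLE scaling, no filter, the replicate number or the lane as a block, only the groups compared, DESeq2 1.42.0, each library left out, the GC offset and leaving out both libraries at the ends of the GC scale. Some genes under these rules are not reported here. Reads were not analysed here.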

Additional observations from a re-analysis of the deposited data

Results flagged for a closer look

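These values are differences between the change from 8 to 24 h in a drug arm and that in DMSO, on the log2 scale (arm minus DMSO), each past an adjusted p of 0.05 in edgeR's interaction test. All share the 6 DMSO libraries, so the arms are not independent of each other. The rises and falls were chosen by the DMSO change that is subtracted here. Downward differences in rises and upward differences in falls were therefore favoured in advance.

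With both drugs, 26 of the 88 genes that rose in DMSO differed downward, where 1.7% of all genes did. Those under the naming rule were CRLS1 (-2.42), C19orf81 (-1.70), LRRC26 (-1.63), PDF (-1.49), HES4 (-1.30), TMEM160 (-1.26), C4orf48 (-1.25), NDUFAF8 (-1.19), INSIG1 (-0.88), KCNN2 (-0.76), CEBPB (-0.69) and UBE2S (-0.58). Genes that fell in DMSO and differed upward were HECTD2 (0.58), RBM5 (0.39) and HSPA1B (0.34). Among genes with an ordinary symbol and a mean of at least 1 CPM over all 36 libraries, the 2 largest differences in each direction were those of KCNU1 (2.81), ZNF578 (1.57), TRPM8 (-3.12) and PLA2G5 (-3.79).

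With enzalutamide alone, 19 of the 88 rises differed downward, where 1.9% of all genes did. Among them were CRLS1 (-1.97), KCNN2 (-0.77), INSIG1 (-0.67), JUND (-0.60) and UBE2S (-0.43). Genes that fell in DMSO and differed upward included HECTD2 (0.67) and RBM5 (0.39). With the same limits, the 2 largest in each direction were those of KCNU1 (2.63), GLI1 (2.07), CHRNA2 (-2.94) and ADH1C (-3.30).

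With olaparib alone, CRLS1 (-2.51) and the peroxisomal hydrolase gene NUDT19 (-0.59) differed downward, and TP53I3 (1.47) and CEL (1.05) differed upward. The groups hold 3 cultures each, so single outlying samples were not tested.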

How the results depend on the processing

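The call count of 102 moved to 228 with no filter on low counts, to 67 with the GC offset and to 11 without both libraries at the ends of the GC scale, and ranged from 20 (without replicate 1 at 8 h) to 116 (without replicate 3 at 8 h) when 1 library was left out. Fewer samples stand behind the counts with libraries left out. The labels do not tie replicate numbers to a shared source. The correlations of the deviations were -0.01, -0.004 and 0.05 for the same-numbered pairs, and with the replicate number as a block 99 genes were called. The third of these pairs also shares a sequencing lane, and the 3 pairs that share a lane had 0.03, 0.05 and 0.05, the only positive values among the 9 pairs of 1 library at each hour. RLE scaling (108), the lane as a block (126), only the groups compared (114) and DESeq2 (105, of which 89 shared) stayed within 1.5 times. The differences from DMSO numbered 8 for olaparib, and became 53 with no filter, 5 with only the groups compared, 19 with DESeq2, 15 with the GC offset and 5 without both libraries. Without both libraries, 246 genes differed for enzalutamide, against 432, and 227 for the combination, against 440. Leaving out 1 library gave 295 to 531 genes for enzalutamide, 6 to 11 for olaparib and 298 to 404 for the combination. The cause of these moves was not tested. No called gene changed sign in the alternatives run. Genes near 1 CPM rest on few counts, so small changes in them were not detectable at this depth.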
